A study of Mus musculus with 8 samples.

Results

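The genes described here are those of the collagen chains, taken as every probe of the array whose gene name has the form of a numbered collagen chain (Col, a type number, the letter a and a chain number). The rule found 40 genes on 59 probes, of 31709 gene names on the array. They were grouped by the structure their chains build: 11 fibrillar chains, 8 chains of basement membranes (the 6 type IV chains with Col15a1 and Col18a1) and 21 others. Each gene was read from its brightest probe, and 34 of the 40 gave a usable signal (10 fibrillar, 8 basement membrane and 16 others).

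RNA came from ovarian tumours that arose without drug treatment in female mice on the C57BL/6J background, 1 tumour per array. All 8 mice carried TgMISIIR-TAg, in which the promoter of the Muellerian inhibiting substance type II receptor (Amhr2) drives the SV40 T antigen, so the oncogene is expressed where that promoter is active. The groups were Nedd9-WT (wild-type Nedd9, n = 4 mice) and Nedd9-null (n = 4 mice). Ages were not given in the sources used here. NEDD9 is a scaffold protein of focal adhesions, the sites at which integrins tie the cell to the matrix. The comparison asked which collagen transcripts differed between Nedd9-null and Nedd9-WT tumours.

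Collagens are proteins of 3 chains wound into a helix, which requires glycine at regular steps along each chain. Fibrillar collagens such as types I, III and V form the rope-like fibres of connective tissue and are made mainly by fibroblasts. Type IV chains form the sheet-like network under epithelia and around vessels, with the chains of Col4a1 and Col4a2 found in nearly all basement membranes and the others in fewer tissues. In the ovary, type IV collagen lies in the follicle's basement membrane and between granulosa cells. The remaining collagens include beaded filaments (type VI), chains that coat fibrils (the FACIT group), short-chain network formers (type VIII) and chains that span the cell membrane (types XIII, XVII, XXIII and XXV).

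The glycine repeat can be read in the probes themselves, which are shown for 4 chains discussed below. Capitals mark GGN triplets, the codons of glycine, in the probe's open reading frame. The coordinates are mm9, per the files.

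Col4a4, chr1:82515563-82515622, minus strand: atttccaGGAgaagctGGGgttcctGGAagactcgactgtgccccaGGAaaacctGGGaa
Col15a1, chr4:47283786-47283845, plus strand: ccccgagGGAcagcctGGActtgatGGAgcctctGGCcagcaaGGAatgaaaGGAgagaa
Col16a1, chr4:129756457-129756516, plus strand: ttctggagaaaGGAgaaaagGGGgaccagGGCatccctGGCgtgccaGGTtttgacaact
Col25a1, chr3:130270497-130270556, plus strand: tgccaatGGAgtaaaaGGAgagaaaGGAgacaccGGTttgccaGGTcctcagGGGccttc

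A glycine codon every 9 bases is the repeat of the helix. Triplets at that spacing numbered 6 in the Col15a1 and Col25a1 probes, 5 in the Col16a1 probe and 3 in the Col4a4 probe, where the repeat is interrupted. An open frame with 4 or more was present in 5 of the 59 probes (Col13a1, Col14a1, Col15a1, Col16a1 and Col25a1). Whether each of the other probes falls in coding or untranslated sequence was not analysed here. The Col23a1 probe that spans 1547 bases of the genome (chr11:51381425-51382971, plus strand) reads across spliced exons: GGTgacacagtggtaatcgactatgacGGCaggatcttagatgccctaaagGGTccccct.

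Levels are given as log2 of the signal over its array's 75th percentile, so that 0 is the signal of the 75th percentile. A difference is the Nedd9-null mean less the Nedd9-WT mean, its standard error (SE) is that of a limma fit over 25535 genes, and adjusted p-values are Benjamini-Hochberg over all of them with a threshold of 0.05. The targeted gene, Nedd9, was 22.9-fold lower in Nedd9-null tumours (log2 difference -4.51, SE 0.44, limma adjusted p = 0.0281). A two-sided exact permutation test gave p = 0.0286, the lowest value possible with 70 arrangements. Each genotype was hybridised on its own slide, so slide and genotype cannot be told apart. Nedd9-null replicate 1 stood apart from its group: over all genes it correlated at 0.886 to 0.920 with the other Nedd9-null tumours and at 0.938 to 0.973 with the Nedd9-WT tumours, whereas Nedd9-null replicates 2 to 4 correlated at 0.977 to 0.984 with each other. Its Nedd9 level was -2.01, against -3.39 to -4.03 in those 3 tumours and 0.84 to 1.85 in Nedd9-WT. Counts of genes that passed are therefore given with and without it, and a chain's difference without it wherever it passed the threshold or moved by over 1.5 times. Without it the comparison has 3 tumours against 4, and 18.6% of all genes passed, against 0.0666% with all 8 tumours.

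No collagen chain passed the threshold with all 8 tumours, where 0.0587% of all genes were called higher and 0.00783% lower, while 7 of the 34 had an unadjusted limma p under 0.05 (20.6%, against 23.9% of all genes). The 7 were Col23a1, Col4a2, Col4a3, Col17a1, Col4a5, Col4a4 and Col4a1, so 5 of them were type IV chains. Of these 7, Col17a1 was kept only through Nedd9-WT arrays, where it was high. The genotypes did not overlap in 4 chains (11.8%, against 12.7% of all genes): Col4a1, Col4a2 and Col4a5 were below every Nedd9-WT value (5.58% of all genes) and Col23a1 was above every one (7.16%). The median difference over the 34 chains was -0.30, against 0.03 over all genes, and 23 of the 34 differences were negative (67.6%, against 47.8% of all genes). By class, the median was -0.67 in basement membrane chains, -0.29 in fibrillar chains and -0.11 in the others.

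Without Nedd9-null replicate 1, 8 of the 34 chains passed (23.5%, against 18.6% of all genes). Col23a1 and Col16a1 were higher (10.3% of all genes were) and Col4a3, Col4a4, Col17a1, Col2a1, Col27a1 and Col12a1 were lower (8.29% of all genes were). In those 3 tumours, 10 chains lay below and 2 above all Nedd9-WT values, against 18% and 16.4% of all genes. Col17a1 and Col9a3, both among the 10, were kept only through Nedd9-WT arrays, where they were high. The filter on dim probes thus favoured their lower direction. The median over the chains was -0.38, against -0.07 over all genes.

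**Figure D1:**
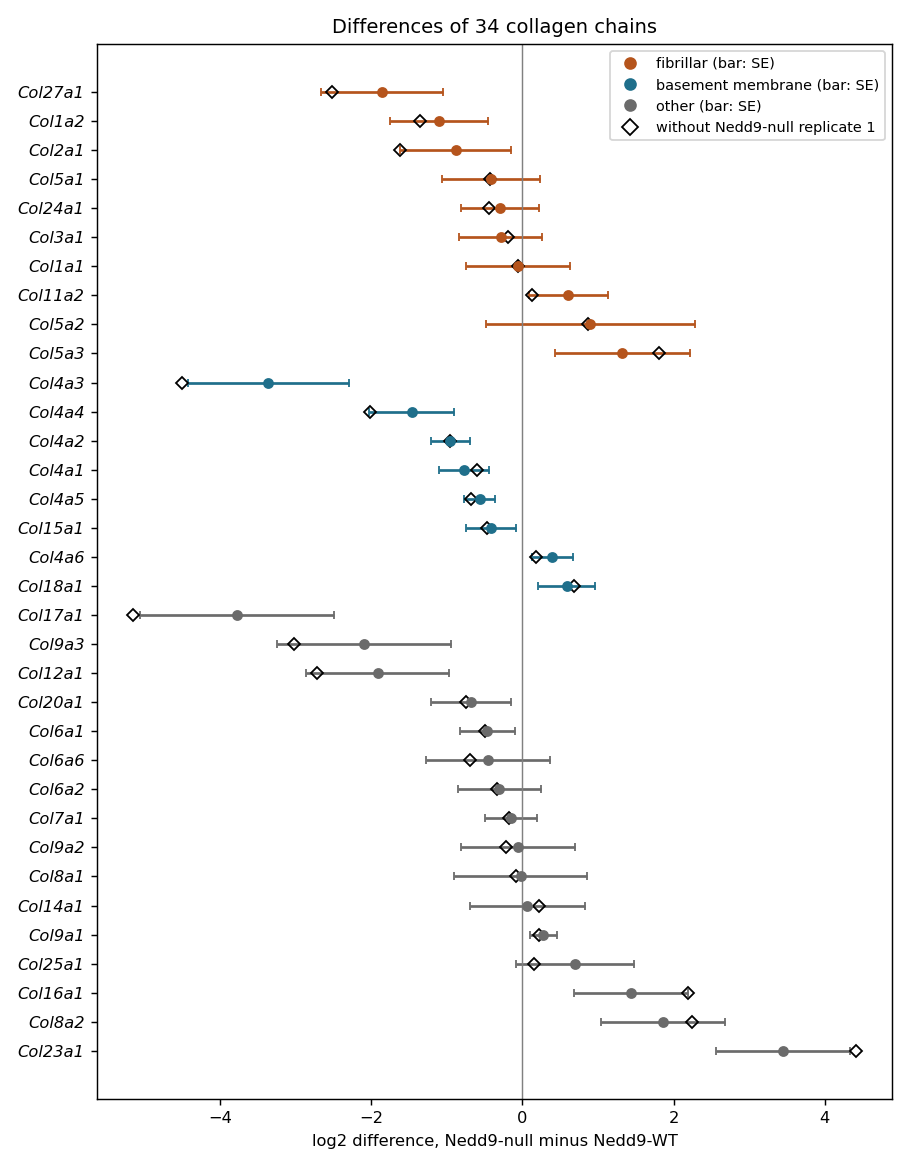
Log2 difference (Nedd9-null minus Nedd9-WT, horizontal axis) of the 34 collagen chains tested, by class, with the SE of the limma fit as bars over 4 tumours per genotype; open diamonds are the differences without Nedd9-null replicate 1. The basement membrane chains lie mostly left of 0, from -3.36 (Col4a3) to 0.59 (Col18a1), and the widest differences of the others are -3.78 (Col17a1) and 3.44 (Col23a1).

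Col4a1 and Col4a2 encode the chains of the common basement membrane network. Col4a2 was 1.86, 2.07, 1.59 and 1.86 in Nedd9-null replicates 1 to 4, and 2.48, 2.68, 2.54 and 3.49 in Nedd9-WT replicates 1 to 4. The 4 Nedd9-null tumours were all below the 4 Nedd9-WT tumours, and Nedd9-WT replicate 4 was the highest. The difference was -0.95 (SE 0.25, limma adjusted p = 0.103), or 1.94-fold, and it was -0.96 without Nedd9-null replicate 1 (limma adjusted p = 0.0596). Col4a1 was 1.20, 2.16, 1.72 and 1.86 in Nedd9-null and 2.19, 2.27, 2.20 and 3.37 in Nedd9-WT tumours. These groups were also apart, though Nedd9-null replicate 2 was only just below the lowest Nedd9-WT tumour, and with quantile normalization or in the authors' deposited table the groups overlapped. The difference of Col4a1 was -0.78 (SE 0.33, limma adjusted p = 0.206), and -0.60 without Nedd9-null replicate 1 (limma adjusted p = 0.260). In bulk tissue, fewer cells of a type and less RNA per cell cannot be told apart.

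Col4a1 and Col4a2 lie head to head, and in RefSeq (assembly GRCm38.p6) their starts are 21 bases apart on chromosome 8. By these starts each transcript begins at an end of the stretch below and runs across it, so that the transcripts overlap there. The stretch is shown because the pair had differences of like size. The capitals mark GGGCGG, the core of the binding motif of SP1-type factors, searched on both strands. It lies after both starts.

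Col4a2 start to Col4a1 start, chr8:11312805-11312826, plus strand: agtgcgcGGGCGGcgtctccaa

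GGGCGG was found in 21 of 35 windows of collagen genes (60.0%) and in 35.7% of all 32851 RefSeq windows of 300 bases (250 before to 50 after a start). CCAAT stood in 12 of 35 (34.3%, against 37.4%) and TATAAA in 5 of 35 (14.3%, against 13.6%). The windows covered 32 of the 40 genes, and these matches describe letters only.

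The pair Col4a3 and Col4a4, likewise neighbours on chromosome 1, encodes chains that with the Col4a5 product form the network of the kidney glomerulus and a few other sites. Col4a3 was -1.23 in Nedd9-null replicate 1 and -4.75, -6.32 and -6.25 in replicates 2 to 4, against -1.38, -1.47, -0.66 and -1.59 in Nedd9-WT tumours. Nedd9-null replicate 1 fell within the Nedd9-WT range and the other 3 were far below it. With all tumours the difference was -3.36 (SE 1.06, limma adjusted p = 0.126). Without Nedd9-null replicate 1, Col4a3 was lower by 22.6-fold (log2 difference -4.50, limma adjusted p = 9.08e-04). Col4a4 was 1.08 in Nedd9-null replicate 1 and -0.92, -1.77 and -0.74 in the others, against 1.26, 0.99, 0.84 and 0.42 in Nedd9-WT tumours. Again only Nedd9-null replicate 1 overlapped with Nedd9-WT. The difference was -1.47 (SE 0.56, limma adjusted p = 0.169), and -2.02, or 4.06-fold lower, without Nedd9-null replicate 1 (limma adjusted p = 0.00522). All 3 Col4a4 probes had negative differences. The glycine-repeat probe printed above had -2.45 and the remaining probe -1.31.

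Col4a5 and Col4a6 are the X-linked pair, with RefSeq starts 1343 bases apart. Col4a5 was 1.07, 0.74, 0.47 and 0.68 in Nedd9-null and 1.13, 1.31, 1.68 and 1.11 in Nedd9-WT tumours. The groups did not overlap, by a narrow margin at Nedd9-null replicate 1, and the difference was -0.57 (SE 0.20, limma adjusted p = 0.150; -0.68 without that tumour, limma adjusted p = 0.0521). Col4a6, whose chain joins that of Col4a5 in smooth muscle and some epithelial membranes, was 2.00, 1.22, 1.15 and 1.04 in Nedd9-null and 1.19, 0.54, 0.85 and 1.24 in Nedd9-WT tumours. These values overlapped, with a difference of 0.40 (SE 0.27, limma adjusted p = 0.410), and 0.18 without Nedd9-null replicate 1 (limma adjusted p = 0.616). Col4a6 was the single type IV chain with a positive difference.

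**Figure D2:**
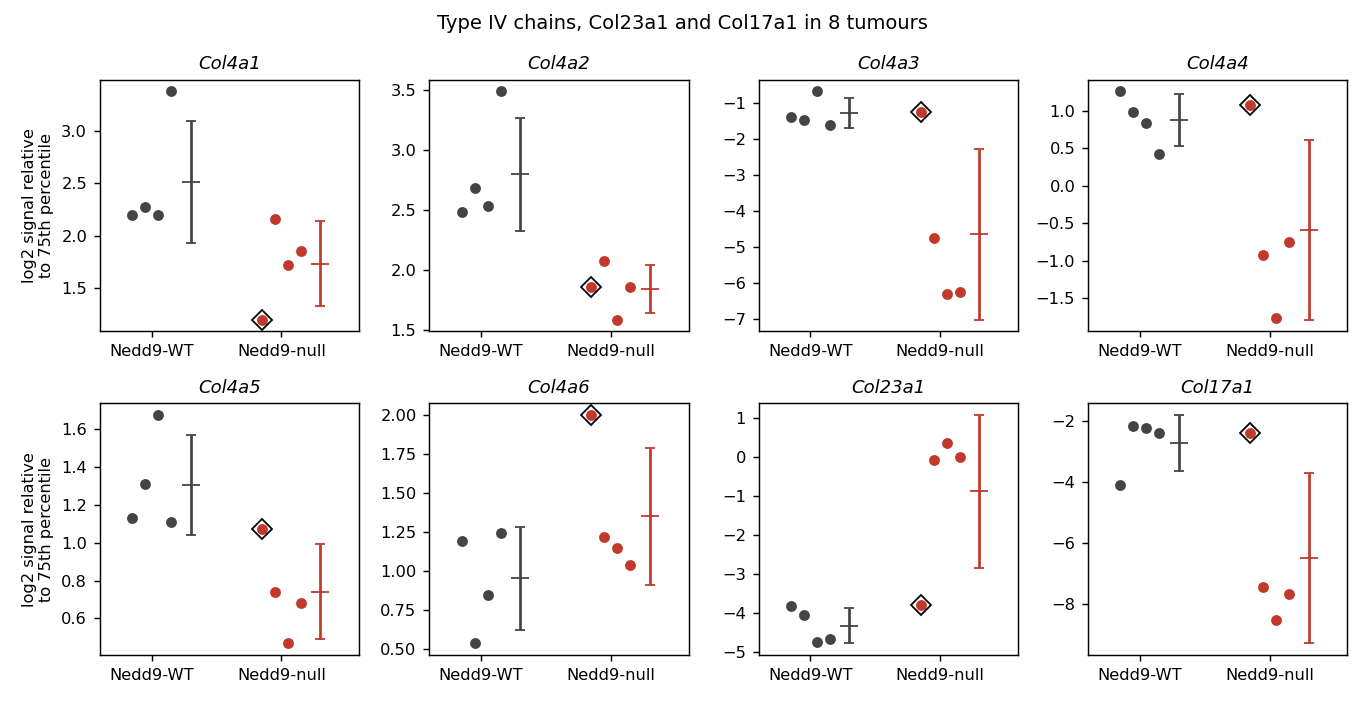
Level (vertical axes, log2 of the signal over the array's 75th percentile) for the 6 type IV chains, Col23a1 and Col17a1 in the 4 Nedd9-WT (grey) and 4 Nedd9-null (red) tumours; points are tumours, bars are mean ± SD, and a diamond marks Nedd9-null replicate 1. In Col4a3, Col4a4, Col23a1 and Col17a1 the marked tumour sits with the Nedd9-WT tumours, and in Col4a1, Col4a2 and Col4a5 all red points are below all grey points.

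The other basement membrane chains are the multiplexins, whose C-terminal fragments include endostatin, released from the Col18a1 product. Col18a1 was 3.72, 3.74, 4.55 and 4.08 in Nedd9-null tumours. In Nedd9-WT tumours it was 2.35, 3.74, 3.82 and 3.83, so that Nedd9-WT replicate 1 alone was low and the groups otherwise lay close together. The difference was 0.59 (SE 0.38, limma adjusted p = 0.387). Col15a1 was dim, from -5.70 to -5.22 in Nedd9-null and from -5.71 to -4.17 in Nedd9-WT tumours, with a difference of -0.42 (SE 0.34, limma adjusted p = 0.491). Its 3 probes spanned -1.85 to -0.42, with the probes other than the brightest near background in Nedd9-null tumours.

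Endothelial markers mostly had negative differences, as most type IV chains did. Summed over the 9 markers in multiples of the 75th percentile, the signal was 5.10 to 6.52 in Nedd9-null tumours. It was 6.36, 6.98, 7.06 and 13.3 in Nedd9-WT replicates 1 to 4, so the groups overlapped and replicate 4 alone was far higher. Kdr (0.12) was the exception, and 8 of the 9 had negative differences (88.9%, against 47.8% of all genes). None passed by limma, 4 had an unadjusted p under 0.05 (44.4%, against 23.9%), and 3 lay below every Nedd9-WT value (33.3%, against 5.58%). When Nedd9-null replicate 1 was left out, 1 of the 9 passed (Eng, log2 difference -1.13, limma adjusted p = 0.0369; 11.1%, against 18.6% of all genes). The highest sum was in Nedd9-WT replicate 4, the tumour that was also highest in Col4a1 and Col4a2. Vwf was the brightest of the 9 markers in that tumour (2.25). The 8 granulosa and Sertoli cell markers, from the supporting cells of the gonad, summed to 203 in Nedd9-null replicate 1, 52.7 to 59.9 in replicates 2 to 4 and 160 to 228 in Nedd9-WT tumours. This sum divided the tumours as Col4a3 and Col4a4 did. Of the 8 markers, 6 had negative differences (75%, against 47.8% of all genes). Foxl2 and Wt1 did not (0.25 and 0.14) and did not divide the tumours in this way. None of the 8 passed with all tumours, and 6 passed as lower without Nedd9-null replicate 1 (75%, against 18.6% of all genes). The part of either marker list in the collagen values was not tested.

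Fibrillar chains showed wide spread among tumours and no chain whose genotypes were apart. None of the 10 tested had an unadjusted limma p under 0.05 with all tumours. The type I chains are the bulk of most fibres. Col1a2 was 2.90, 3.04, 0.94 and 1.62 in Nedd9-null and 4.61, 3.09, 2.11 and 3.09 in Nedd9-WT tumours. Nedd9-WT replicate 1 was highest and Nedd9-null replicate 3 lowest, with overlap between the groups and a difference of -1.10 (SE 0.65, limma adjusted p = 0.338). Col1a1 was 1.26, 2.02, 0.65 and 1.25 in Nedd9-null and 3.00, 1.47, -0.51 and 1.48 in Nedd9-WT tumours, so that the Nedd9-WT tumours held both the highest and the lowest value. Its difference was -0.06 (SE 0.69, limma adjusted p = 0.968). Col3a1, the chain of type III collagen, was 1.55, 2.30, 1.54 and 2.01 in Nedd9-null and 3.79, 2.07, 1.38 and 1.30 in Nedd9-WT tumours, with a difference of -0.29 (SE 0.55, limma adjusted p = 0.789), and -0.19 without Nedd9-null replicate 1. Nedd9-WT replicate 1 was again well above all others.

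Of the type V chains, which regulate fibril diameter, Col5a3 was -2.72, -0.51, -1.37 and -0.57 in Nedd9-null and -1.47, -4.22, -3.998 and -0.78 in Nedd9-WT tumours. Nedd9-WT replicates 2 and 3 were low and the other tumours overlapped, with a difference of 1.32 (SE 0.90, limma adjusted p = 0.409). Col5a1 ranged from -2.27 to -1.40 in Nedd9-null and from -3.53 to -0.25 in Nedd9-WT tumours (difference -0.42, SE 0.65, limma adjusted p = 0.736). Col5a2, whose gene neighbours Col3a1 with 25.6 kb between their probes, ranged from -4.75 to -3.57 in Nedd9-null tumours. In Nedd9-WT it went from -9.29 in replicate 3, where it was not well above background, to -1.89 in replicate 1. Its difference of 0.89 (SE 1.38, limma adjusted p = 0.736) turned to -0.55 without Nedd9-WT replicate 3.

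The remaining fibrillar chains were dim. Col27a1, known from cartilage, was -3.20, -4.84, -5.94 and -6.68 in Nedd9-null and -4.24, -3.78, -1.87 and -3.33 in Nedd9-WT tumours. Nedd9-null replicates 2 to 4 were below all Nedd9-WT tumours and replicate 1 was not. The difference was -1.86 (SE 0.81, limma adjusted p = 0.212), and -2.52 without Nedd9-null replicate 1 (limma adjusted p = 0.0374). Col2a1, the main cartilage fibre chain, was -1.90, -4.42, -4.40 and -5.75 in Nedd9-null and -3.36, -3.19, -2.72 and -3.67 in Nedd9-WT tumours. Here Nedd9-null replicate 1 was the highest of all 8 tumours and the other Nedd9-null tumours were the lowest. The difference was -0.88 (SE 0.73, limma adjusted p = 0.507), and -1.62 without that tumour (limma adjusted p = 0.0303). Col11a2 was -3.47, -4.48, -6.02 and -5.60 in Nedd9-null and -5.59, -5.26, -5.68 and -5.46 in Nedd9-WT tumours (difference 0.61, SE 0.52, limma adjusted p = 0.523). Nedd9-null replicates 1 and 2 were above every Nedd9-WT tumour and replicate 3 was below. The Col11a2 difference was 0.13 without Nedd9-null replicate 1 (limma adjusted p = 0.844). Col24a1 differed by -0.30 (SE 0.51, limma adjusted p = 0.765), and by -0.45 without that tumour. The 4 cartilage and bone markers tested were dim, with sums of 0.074 to 0.122 in Nedd9-null and 0.075 to 0.125 in Nedd9-WT tumours. Of these, 2 had positive and 2 negative differences (50% negative, against 47.8% of all genes), and none passed with or without Nedd9-null replicate 1. Matn3 differed by 2.22 (SE 0.65, limma adjusted p = 0.111). It was well above background on 4 Nedd9-null arrays and 1 Nedd9-WT array, so the filter favoured a positive difference.

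In 7 of the 10 fibrillar chains the SD was larger among Nedd9-WT than among Nedd9-null tumours (70%, against 49.1% of all genes), with median SDs of 1.10 and 0.80. The SD among Nedd9-WT tumours was the smaller in Col2a1 (0.39, against 1.61), Col11a2 (0.18, against 1.15) and Col27a1 (1.03, against 1.52). The median deviation of the 10 chains from their Nedd9-WT mean was 1.26 in Nedd9-WT replicate 1 and -1.05 in replicate 3, and -0.01 and 0.08 in replicates 2 and 4. In Nedd9-null tumours it was 0.01, 0.14, -0.65 and -0.12. Of the 4 Nedd9-WT tumours, replicate 1 was highest in 6 of the 10 chains (28.8% of all genes) and replicate 3 was lowest in 6 (30.0% of all genes). Without Nedd9-WT replicate 1 the fibrillar median turned from -0.29 to 0.19. Over all 34 chains, the SD among Nedd9-WT tumours was larger than that among Nedd9-null tumours in 22 (64.7%, against 49.1% of all genes), with medians of 0.95 and 0.57, against 0.38 and 0.38 over all genes. The summed fibroblast markers spanned 21.2 to 47.1 in Nedd9-null and 18.5 to 28.7 in Nedd9-WT tumours. The Nedd9-WT maximum was in replicate 1. The highest sum of all was in Nedd9-null replicate 3, where the fibrillar median was -0.65. Gsn (5.22) made up most of the sum in that tumour, with Dcn next (2.96), so the sum there is largely a reading of a single gene. Of the 10 markers, 7 had positive and 3 negative differences (30% negative, against 47.8% of all genes). None of the 10 passed with all tumours. Without Nedd9-null replicate 1, 3 passed (30%, against 18.6% of all genes), 2 higher and 1 lower. The 4 adipocyte markers summed to 13.0 in Nedd9-WT replicate 1 and 0.17 to 0.35 in the other Nedd9-WT tumours. In Nedd9-null tumours they summed to 20.4 in replicate 1 and 0.080 to 1.01 in the others. Smooth muscle and pericyte markers spanned 13.7 to 49.0 and 8.56 to 29.5, and leukocyte markers 12.5 to 61.2 and 16.0 to 24.9, in Nedd9-null and Nedd9-WT tumours. The leukocyte sum of 61.2 was in Nedd9-null replicate 1. Of the Nedd9-null tumours it was highest in Itgam (5.84) and Cd79a (-5.08). It was lowest in Ptprc (-4.13), Cd68 (-4.78) and Csf1r (1.65), and in between in Cd3e. No adipocyte, smooth muscle and pericyte or leukocyte marker passed with or without that tumour. The part of these marker lists in the fibrillar values was not tested.

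**Figure D3:**
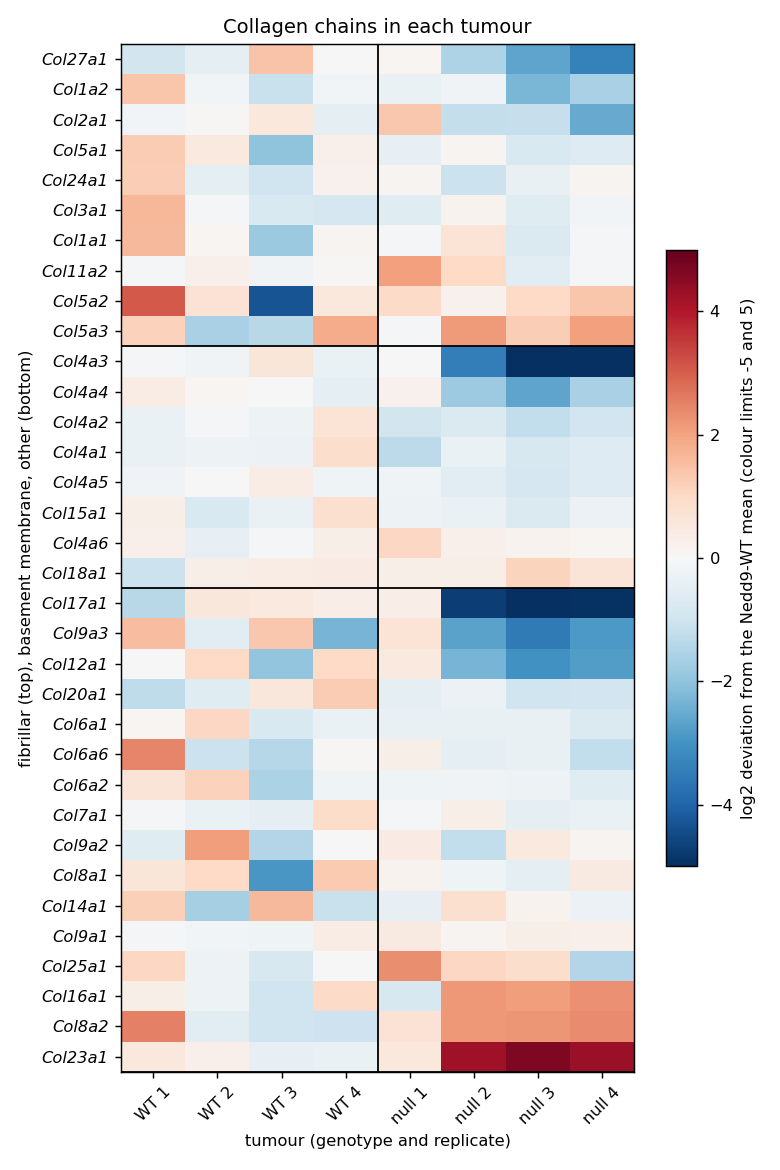
Deviation of each of the 34 collagen chains (rows, by class) from its Nedd9-WT mean in each tumour (columns), as log2 colour with limits of -5 and 5. Of the 10 fibrillar rows, Nedd9-WT replicate 1 is above the Nedd9-WT mean in 7 and replicate 3 below it in 8 (medians 1.26 and -1.05), and Col4a3, Col17a1 and Col23a1 change colour sharply between Nedd9-null replicate 1 and replicates 2 to 4.

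Among the other collagens, the membrane-spanning chains held the widest differences in either direction. Col23a1, a transmembrane collagen that binds integrins, was -3.79 in Nedd9-null replicate 1 and -0.07, 0.37 and 0.00 in replicates 2 to 4, against -3.80, -4.05, -4.74 and -4.66 in Nedd9-WT tumours. Nedd9-null replicate 1 was above the highest Nedd9-WT tumour only just, and the other 3 were far above. The groups overlapped with normexp background correction, median scaling, quantile normalization, the mean of the kept probes and in the authors' deposited table. The difference was 3.44 (SE 0.89, limma adjusted p = 0.0974), and without Nedd9-null replicate 1 Col23a1 was 21.3-fold higher (log2 difference 4.42, limma adjusted p = 3.16e-04). Its 3 probes gave 3.23 to 4.12, of which the probe at 3.23 was well above background on only 1 Nedd9-WT array. On that probe, the junction-spanning one printed above, the values were -7.17, -3.34, -3.06 and -3.28 in Nedd9-null replicates 1 to 4, and the Nedd9-WT tumours lay between -7.89 and -6.85, so that replicate 1 overlapped with Nedd9-WT there.

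Col17a1 encodes a collagen of hemidesmosomes, the anchors of basal epithelial cells. It was -2.38, -7.43, -8.51 and -7.66 in Nedd9-null and -4.10, -2.17, -2.23 and -2.39 in Nedd9-WT tumours. Nedd9-null replicates 2 to 4 were low and Nedd9-null replicate 1 lay with Nedd9-WT. The difference was -3.78 (SE 1.29, limma adjusted p = 0.139), and -5.15 without Nedd9-null replicate 1 (limma adjusted p = 0.00114). The probe cleared background on 2 of 4 Nedd9-null and on all 4 Nedd9-WT arrays. It was thus kept only through Nedd9-WT, where it was high, so the filter favoured a negative difference. The size of the difference depended on the background step: with all tumours it was -2.06 with normexp background correction. Col25a1, also membrane-spanning, ranged from -6.86 to -3.06 in Nedd9-null and from -6.19 to -4.33 in Nedd9-WT tumours (difference 0.69, SE 0.78, limma adjusted p = 0.631). The Col25a1 difference was 0.15 without Nedd9-null replicate 1, the highest of the 8 tumours (limma adjusted p = 0.912). The 6 epithelial markers summed to 5.60 in Nedd9-null replicate 1, 52.7 to 102 in replicates 2 to 4 and 11.1 to 55.5 in Nedd9-WT tumours. Nedd9-null replicates 2 and 3, low in Col17a1, thus had the highest sums, and replicate 4, also low in Col17a1, was just below Nedd9-WT replicate 3. Krt18 and Krt8 were the brightest of the 6 in these tumours. All 6 had positive differences (0% negative, against 47.8% of all genes), but Cdh1 was highest in Nedd9-WT replicate 2 (0.11). Without Nedd9-null replicate 1, 3 of the 6 passed as higher (50%, against 18.6% of all genes). The 5 ciliated cell markers summed to 7.83 in Nedd9-null replicate 1, 43.6 to 72.3 in replicates 2 to 4 and 1.21 to 2.77 in Nedd9-WT tumours, so that Nedd9-null replicates 2 to 4 were high in these as in Col23a1. All 5 passed as higher without Nedd9-null replicate 1 (100%, against 18.6% of all genes). With all tumours, no epithelial or ciliated marker passed. The part of these markers was not tested.

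The short-chain collagen Col8a2, of vessel walls and corneal endothelium, was -0.47, 0.99, 1.05 and 1.19 in Nedd9-null and 1.35, -1.69, -2.15 and -2.20 in Nedd9-WT tumours. Nedd9-WT replicate 1 was the highest of all and the other Nedd9-WT tumours the lowest, with a difference of 1.86 (SE 0.82, limma adjusted p = 0.218). Without Nedd9-WT replicate 1 the genotypes did not overlap. Its partner Col8a1 differed by -0.02 (SE 0.88, limma adjusted p = 0.992), and by -0.08 without Nedd9-null replicate 1.

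The FACIT chains sit on the surface of fibrils. Col16a1 was -0.05, 2.92, 2.84 and 3.03 in Nedd9-null and 1.05, 0.51, -0.25 and 1.69 in Nedd9-WT tumours. Nedd9-null replicates 2 to 4 were above all Nedd9-WT tumours and replicate 1 was among them. The difference was 1.44 (SE 0.76, limma adjusted p = 0.287), and 2.18, or 4.55-fold higher, without Nedd9-null replicate 1 (limma adjusted p = 0.0143). Its 3 probes, including the glycine-repeat probe printed above (1.28), gave 1.28 to 1.68. Col12a1 was 0.71, -2.10, -2.83 and -2.59 in Nedd9-null and 0.20, 1.21, -1.76 and 1.21 in Nedd9-WT tumours, with Nedd9-WT replicate 3 near the low Nedd9-null tumours. The difference was -1.92 (SE 0.95, limma adjusted p = 0.262), and -2.72 without Nedd9-null replicate 1 (limma adjusted p = 0.0421). Col9a3 had a difference of -2.10 (SE 1.15, limma adjusted p = 0.308) but was well above background on 1 Nedd9-null and 3 Nedd9-WT arrays. Its partners in type IX collagen, Col9a1 and Col9a2, differed by 0.27 (SE 0.18) and -0.06 (SE 0.76), and Col9a1 turned to -0.03 with quantile normalization. Col20a1 differed by -0.68 (SE 0.53) and Col14a1 by 0.06 (SE 0.76), the latter -0.13 with median scaling. The differences of Col9a2 and Col14a1 were -0.21 and 0.22 without Nedd9-null replicate 1.

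Type VI chains form beaded filaments around cells. Col6a1 was 3.93, 3.92, 3.91 and 3.58 in Nedd9-null and 4.37, 5.31, 3.54 and 3.95 in Nedd9-WT tumours. The groups overlapped and the Nedd9-null tumours were close together (difference -0.46, SE 0.36, limma adjusted p = 0.478). Col6a2, 113 kb from Col6a1 by their probes, differed by -0.30 (SE 0.55) and Col6a6 by -0.45 (SE 0.82), the latter by -0.70 without Nedd9-null replicate 1. Col7a1, of the anchoring fibrils of skin, differed by -0.15 (SE 0.34). None of these had an unadjusted limma p under 0.05.

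In 11 chains more than 1 probe passed the filter on dim probes, and in all 11 the probes of a chain had differences of the same sign. The same share over the 5192 genes with more than 1 kept probe was not computed. In Col15a1 and Col23a1 the count includes dim probes kept through only 1 genotype, the one where they were higher. The filter favoured the sign of these dim probes, so they add no separate evidence of direction, and their sizes are uncertain. The Col15a1 probe at -1.85 was well above background on 2 Nedd9-null arrays and its probe at -0.91 on 1, and the Col23a1 probe at 3.23 on 1 Nedd9-WT array.

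**Figure D4:**
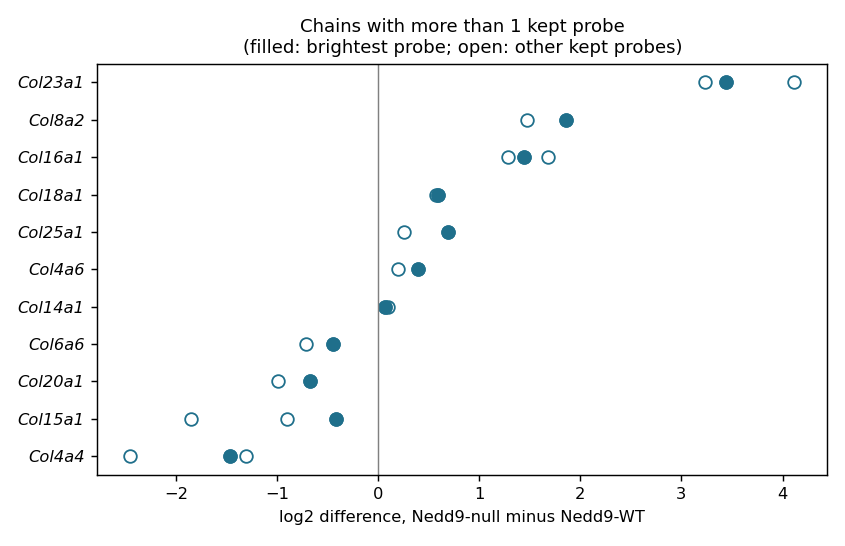
Log2 difference (Nedd9-null minus Nedd9-WT, horizontal axis) of each kept probe of the 11 chains with more than 1; filled circles are the brightest probe, used for the gene, and open circles the others. Probes of a chain fall on one side of 0 in each row, from -2.45 to -1.31 in Col4a4 and from 3.23 to 4.12 in Col23a1.

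Another 6 chains were too dim to test. Col19a1 and Col13a1 were not well above background on any array, Col22a1 was on 1 array of each genotype, and Col28a1 on 2 Nedd9-WT arrays. For Col10a1, the collagen of growth plate cartilage, and Col11a1, a fibrillar chain, it was 2 arrays of each genotype. Col11a1 was uneven among tumours, -2.90, -5.65, -9.55 and -10.14 in Nedd9-null and -6.57, -1.13, -9.70 and -8.46 in Nedd9-WT, with the highest value in Nedd9-WT replicate 2. No collagen spot was saturated on any array. In 25 of the 34 tested chains Nedd9-null replicate 1 lay within the Nedd9-WT range (73.5%, against 52.0% of all genes).

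Collagen chains are hydroxylated, folded, trimmed and cross-linked by a set of enzymes and chaperones. Of 36 such genes 35 were tested. None passed with all tumours (0.0666% of all genes did), 12 had an unadjusted limma p under 0.05 (34.3%, against 23.9% of all genes), and the genotypes were apart in 6 (17.1%, against 12.7%). Of these 6, 4 were below Nedd9-WT and 2 above, directions that 5.58% and 7.16% of all genes had. The median difference was -0.07. Without Nedd9-null replicate 1, 9 passed (25.7%, against 18.6% of all genes), 6 lower and 3 higher. Fkbp10, a chaperone of procollagen, was 3.53, 2.29, 2.17 and 2.50 in Nedd9-null and 4.005, 4.29, 3.98 and 3.86 in Nedd9-WT tumours. The groups were apart, with Nedd9-null replicate 1 nearest to Nedd9-WT (difference -1.41, SE 0.31, limma adjusted p = 0.0840). The lysyl hydroxylase genes Plod2 and Plod1 differed by -1.15 (SE 0.33) and -1.14 (SE 0.36), and P3h4, a partner in lysine hydroxylation, by -1.63 (SE 0.48). Sparc, a collagen-binding matricellular protein and chaperone of type IV collagen, was 7.365, 6.78, 6.45 and 6.59 in Nedd9-null and 7.50, 7.51, 7.63 and 7.48 in Nedd9-WT tumours. Its groups were apart (difference -0.73, SE 0.22, limma adjusted p = 0.115). Colgalt2, a collagen galactosyltransferase, differed by 2.21 (SE 0.58, limma adjusted p = 0.101). Without Nedd9-null replicate 1 these 6 genes passed, with limma adjusted p from 0.00102 (Fkbp10) to 0.0255 (Plod1).

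**Figure D5:**
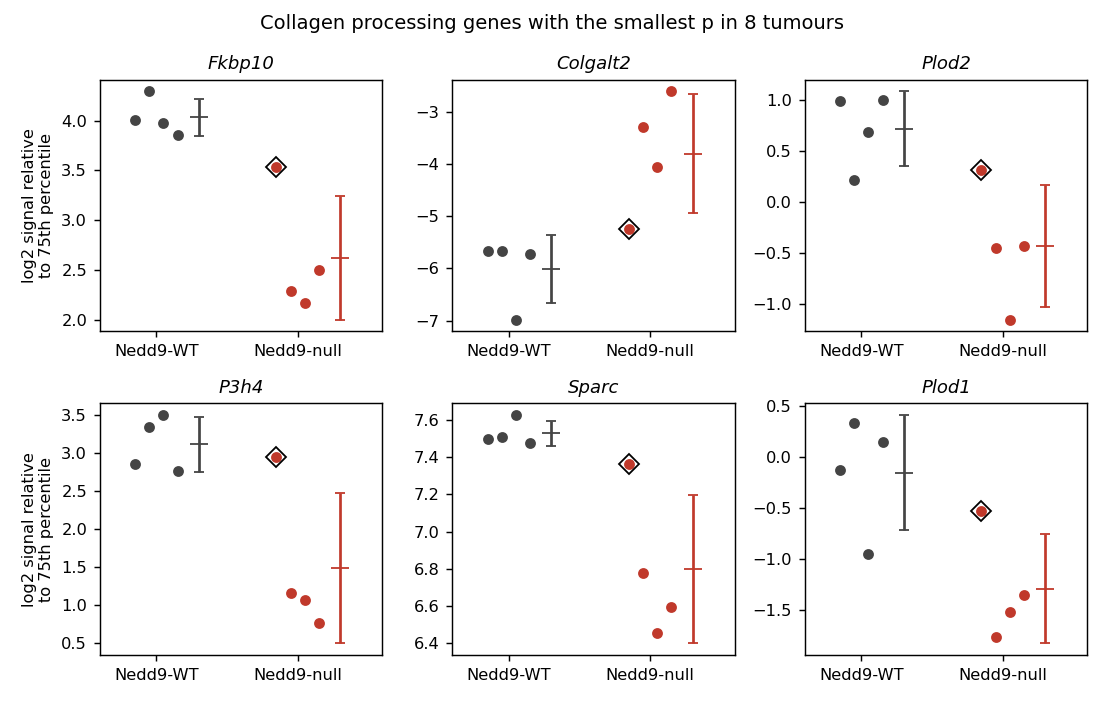
Level (vertical axes, log2 of the signal over the array's 75th percentile) for the 6 collagen processing genes with the smallest p in the 4 Nedd9-WT (grey) and 4 Nedd9-null (red) tumours; points are tumours, bars are mean ± SD, and a diamond marks Nedd9-null replicate 1. Fkbp10, Plod2, P3h4, Sparc and Plod1 have negative differences (-1.63 to -0.73) and Colgalt2 a positive one (2.21), with the marked tumour between the groups or among the Nedd9-WT tumours.

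Cells bind collagen through integrins and receptor kinases and break it down with proteases. Of 23 such genes 20 were tested, none passed with all tumours, 3 had an unadjusted limma p under 0.05 (15%, against 23.9% of all genes), and none had genotypes apart (12.7% of all genes did). Ddr2, a receptor kinase that binds fibrillar collagen, was 1.37, 2.16, 2.30 and 2.15 in Nedd9-null and 1.55, -2.36, -4.77 and -2.70 in Nedd9-WT tumours. Nedd9-WT replicate 1 lay among the Nedd9-null tumours and the other 3 were far lower (difference 4.06, SE 1.17, limma adjusted p = 0.110). Mrc2, an uptake receptor for collagen, differed by 1.30 (SE 0.50), and Itga11, the integrin chain for fibrillar collagen, by -2.74 (SE 1.08). Without Nedd9-null replicate 1, 2 of the 20 passed, a share of 10% that is below the 18.6% of all genes: Mrc2 higher (1.78, limma adjusted p = 0.00911) and Itga11 lower (-3.85, limma adjusted p = 0.00312). Mmp8, a collagenase, Itga10, an integrin chain for collagen, and Prelp, a small proteoglycan that binds collagen, differed by 2.08 (SE 0.99), -1.82 (SE 0.87) and -0.82 (SE 0.41).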

How the data were processed

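The deposited scanner files hold 1-colour intensity values, made with Agilent Feature Extraction 9.5.3 per the submitters' processing notes; subtraction of background and detrending within the array are recorded per the file headers. The authors' deposited table holds log2 values whose background step is not given in the sources used here; it follows the median spot signal (r = 0.999 or higher) and was used as an alternative. Per the labels' protocols, 500 ng of RNA was amplified and labelled with Cy3; labels differ on tumour volume, under or having reached 2000 mm3. Control and outlier spots were left out, spots of a probe averaged, and the processed signal was put on a log2 scale and centred on its array's 75th percentile. Of 39429 probes, 31783 cleared background on 3 or more of the 4 arrays of a genotype and were kept, and the brightest stood for the gene. Gene names were updated through RefSeq (GRCm38.p6) for the other genes and the lists; collagens kept the file's name. Between 73.0% and 84.6% of probes were well above background, and the number of arrays limits the precision. The test was limma's lmFit and eBayes, 2-sided (limma 3.58.1, R 4.3.3, and the package data.table, version 1.17.8); figures used Python 3.11.15 and matplotlib 3.10.9. The fit was tested on simulated data. Probe positions (mm9) are those of the files, and promoter windows were taken from a RefSeq set of assembly GRCm38.p6, with no position converted between the assemblies.

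Named genes are all collagen chains, with values per array for up to 5 per class with the smallest p, the type IV pairs and up to 6 per list; per-array values of other chains (Col1a1, Col3a1, Col11a1, Col6a1, Col18a1) were added after their values were seen. The members and lists were chosen with earlier results of these data known. Replicate numbers do not pair the tumours. Groups and numbers come from the titles in the labels, with 1 mouse per sample.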

Additional observations from a re-analysis of the deposited data

Results flagged for a closer look

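In groups of 4 tumours, the highest or lowest value was compared with its neighbour by Dixon's ratio at its 95% level. Of 70 groups tested over 35 genes, 10 had such a value, where chance alone gives about 1 in 20 groups, and the values of chains and tumours are not independent. Nedd9-null replicate 1 stood out in 3 chains: Col23a1 at -3.79 (the others -0.07 to 0.37), Col16a1 at -0.050 (the others 2.84 to 3.03) and Col8a2 at -0.47 (the others 0.99 to 1.19). Nedd9-WT replicate 1 stood out in Col8a2 at 1.35 (the others -2.20 to -1.69), in Col17a1 at -4.10 (the others -2.39 to -2.17) and in Col18a1 at 2.35 (the others 3.74 to 3.83). Nedd9-WT replicate 4 was at 3.37 in Col4a1 (the others 2.19 to 2.27), and Nedd9-WT replicate 3 at -5.66 in Col8a1 (the others -2.17 to -1.47). The remaining values lay close to their group in absolute terms: Nedd9-null replicate 3 at -5.70 in Col15a1 (the others -5.30 to -5.22) and Nedd9-null replicate 4 at 3.58 in Col6a1 (the others 3.91 to 3.93).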

How the results depend on the processing

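Settings were changed one at a time. For the 34 chains, 371 differences were recomputed under alternatives other than leaving out a tumour. Of these, 357 kept their sign and stayed on the same side of the threshold, and 10 came to pass it. The other 4 changed sign without passing in either setting, and no called value changed sign. The size of the movement was not part of this count. The genes called numbered 17 with all tumours, 4 with median scaling, 4 with quantile normalization, 7 with probes above background on all arrays and 5983 with array weights. With the replicate block (the replicate number as a block) 0 genes and 0 collagen chains were called by limma, with 4729 and 7 at an unadjusted p under 0.05; same-numbered tumours had correlations of deviations of -0.23 to -0.04, and none correlated best with its own number, so they share only a number. Leaving out 1 tumour at a time gave 0 to 4789 genes. Collagen chains called numbered 10 with array weights (8 lower, 2 higher; 23.4% of all genes) and 0 to 8 with a tumour left out, 8 of them without Nedd9-null replicate 1 and 0 without any other tumour. Chains above every Nedd9-WT value fell from 1 (Col23a1) to 0 with normexp, median scaling, quantile normalization, the deposited table and the mean of kept probes, and were 1 to 2 with a tumour left out. Chains below numbered 2 to 3 in the other settings and 3 to 10 with a tumour left out (10 when Nedd9-null replicate 1 was dropped and 7 when it was Nedd9-WT replicate 3). Over all genes, 5.58% lay below with all tumours and 18% without Nedd9-null replicate 1. The share without Nedd9-WT replicate 3 was not computed, so the 7 chains cannot be read as a result about collagens. The basement membrane median stayed between -0.86 and -0.56. The fibrillar median ran from -0.69 to 0.19 and turned positive without Nedd9-WT replicate 1. The median of the other chains ran from -0.54 (without Nedd9-WT replicate 3) to -0.083 with a tumour left out. Median scaling moved the median of all genes from 0.03 to -0.16, so differences under that scaling are read against it. Signal over background limits Col17a1, Col9a3 and the 6 untested chains.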
